A study of Mus musculus with 9 samples.

Results

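The 10 genes described here encode inter-alpha-trypsin inhibitor proteins and enzymes that make or cut hyaluronan. They were taken by symbol from 22092 genes measured in ribosome-bound mRNA of mouse astrocytes, and they are Itih1, Itih2, Itih3, Itih4, Itih5, Ambp, Has1, Has2, Hyal1 and Hyal2. In translating ribosome affinity purification (TRAP), GFP-tagged ribosomes are immunoprecipitated and the mRNAs attached to them are sequenced. All mice were 2 months old, of the strain given as Aldh1L1 JD130 with the genotype tg:Aldh1L1-L10aGFP, in which the Aldh1l1 promoter, active in astrocytes, drives the ribosomal protein L10a fused to eGFP. For whole astrocyte TRAP (3 libraries) each library is a brain of its own, freed of choroid plexus. For endfeet TRAP (6 libraries) purified brain vessels, to which astrocyte endfeet remain attached, were pooled from several mice per library. No untagged or untreated control library was used here, and vessel cells were present in the starting material of endfeet TRAP.

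Hyaluronan is a long unbranched sugar polymer of the extracellular matrix, made at the plasma membrane by the hyaluronan synthases and cut by hyaluronidases. Inter-alpha-trypsin inhibitor is a secreted complex of heavy chains, encoded by the Itih genes, and a light chain called bikunin, encoded by Ambp. The heavy chains can be transferred onto hyaluronan, which stabilizes the matrix, and the liver is the main source of the complex in plasma. In brain, hyaluronan is the backbone of the matrix to which lecticans and link proteins bind.

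The libraries held between 35984144 and 43521208 gene counts in whole astrocyte TRAP and between 2319495 and 13450588 in endfeet TRAP. Expressed as CPM, that is counts scaled to a common library total, 3 counts came to 0.0689 to 0.0834 in the former and 0.223 to 1.29 in the latter, where endfeet library 6 was the shallowest. Endfeet libraries also differed far more among themselves, with a common dispersion of 0.725 against 0.0141 in whole astrocyte TRAP. Astrocyte markers were present in both groups. The mean of their log2(CPM + 1) ranged from 10.2 to 10.3 in whole astrocyte and from 8.77 to 9.90 in endfeet libraries, and 3 of 9 were lower and 1 was higher in endfeet TRAP. Markers of vessel cells were much higher in endfeet TRAP, from 0.667 to 0.717 against 6.98 to 8.55 for 9 endothelial genes and from 1.97 to 2.14 against 7.56 to 8.75 for 9 mural genes, all of which passed the test. By these markers the endfeet libraries held RNA of vessel cells beside that of astrocytes. In bulk libraries, fewer cells of a type and less RNA per cell cannot be told apart.

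Of the 10 genes, 5 had enough counts to be tested. Itih2, Itih5, Hyal1 and Hyal2 rose in endfeet TRAP, no member fell, and Itih3 missed the threshold (edgeR's quasi-likelihood test, Benjamini-Hochberg adjusted p of at most 0.05). Over all 14427 genes tested, 34.6% were called, 20.7% higher and 13.9% lower. The median log2 fold change of the 5 genes was 3.60, beside 0.10 over all genes tested. All 6 endfeet libraries stood above all 3 whole astrocyte libraries for the 4 genes that were higher, as they did for 19.1% of the genes tested. The groups did not overlap, in either direction, for 42.4% of the genes tested. The p-values measure the spread between these libraries. The test fits that spread for both groups together, although their common dispersions were 0.725 for endfeet and 0.0141 for whole astrocyte TRAP.

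**Figure D1:**
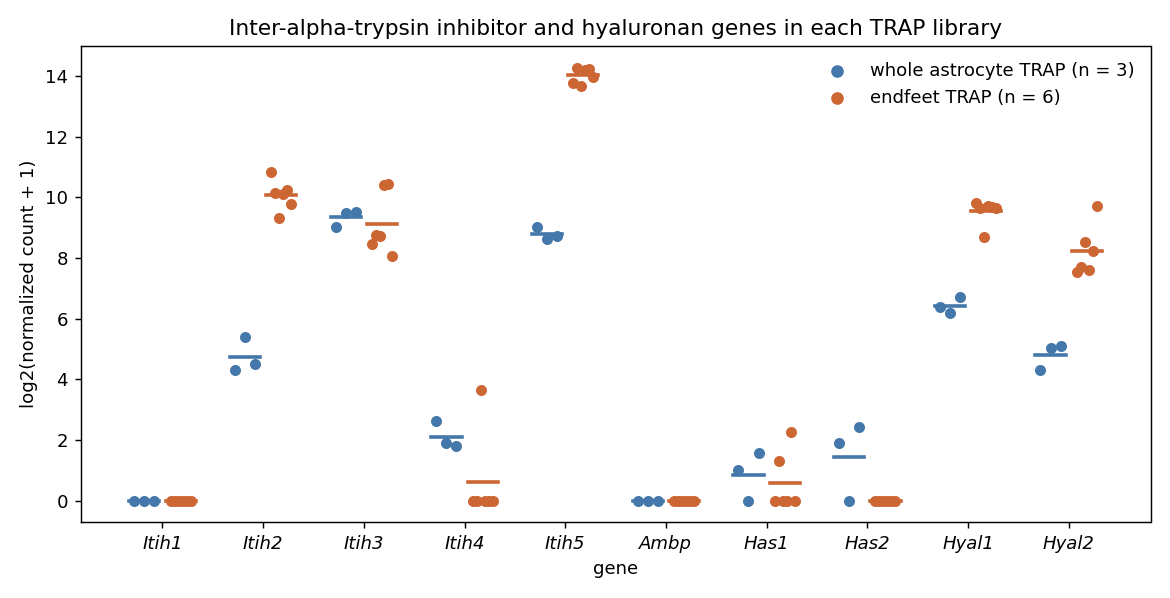
Each point is 1 library, with log2(normalized count + 1) on the vertical axis, the 10 genes on the horizontal axis and bars at the group means. The endfeet libraries stand above the whole astrocyte libraries for Itih2, Itih5, Hyal1 and Hyal2, the groups overlap for Itih3, and the other 5 genes have at most 11.6 normalized counts in any library.

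The stretch of 250 bases before the start annotated by RefSeq is shown for Itih5, Itih2 and Hyal1, which were higher and whose window lies wholly before the start of the transcript measured here. The sequences are on build GRCm38.p6 and were found for 9 of the 10 genes. For Itih3 and Hyal2 the RefSeq start lies downstream of that of the measured transcript, so that 173 and 46 bases of the window fall inside it, and these windows are not shown. The sequences are written 5′ to 3′ on the strand of the gene, with matches to searched motifs in capitals. The motifs, searched on both strands, were the TATA box (TATAAA), the CCAAT box (CCAAT), the GC box (GGGCGG), the AP-1 site (TGANTCA), the STAT site (TTCNNNGAA) and the palindromic NFI site.
Itih5: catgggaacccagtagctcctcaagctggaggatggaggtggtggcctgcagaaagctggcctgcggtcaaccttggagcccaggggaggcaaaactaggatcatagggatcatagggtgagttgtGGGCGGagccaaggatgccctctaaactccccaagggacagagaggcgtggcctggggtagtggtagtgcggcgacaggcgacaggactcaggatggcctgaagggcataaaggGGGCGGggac
Itih2: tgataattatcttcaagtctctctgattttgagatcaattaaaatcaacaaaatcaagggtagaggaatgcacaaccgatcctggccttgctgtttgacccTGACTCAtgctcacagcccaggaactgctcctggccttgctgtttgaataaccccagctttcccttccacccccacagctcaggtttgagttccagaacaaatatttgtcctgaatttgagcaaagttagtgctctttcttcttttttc
Hyal1: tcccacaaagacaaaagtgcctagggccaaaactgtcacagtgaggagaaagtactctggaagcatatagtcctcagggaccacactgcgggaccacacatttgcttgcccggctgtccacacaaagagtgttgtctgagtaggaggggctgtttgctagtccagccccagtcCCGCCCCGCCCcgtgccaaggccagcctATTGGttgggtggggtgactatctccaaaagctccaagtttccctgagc
The windows are chr2:10153293-10153542 on the plus strand for Itih5, chr2:10130684-10130933 on the minus strand for Itih2 and chr9:107576700-107576949 on the plus strand for Hyal1.

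A GC box stood 2 times in the window of Itih5 and 2 times, overlapping, in that of Hyal1, and 32.7% of 32817 promoter windows of the same length held it. The Itih2 window held no GC box and 1 AP-1 site, which 6.75% of the windows held. The Hyal1 window also held a CCAAT box, found in 33.8%. No TATA box, STAT site or NFI site was in these 3 windows, against 12.4%, 7.01% and 0.0366% of all windows. Itih2 and Itih5, whose log2 fold changes lay close together, differed in base composition, with 1 CpG and 43.2% G and C in the Itih2 window and 7 CpGs and 61.2% in the Itih5 window. The medians over all windows were 6 CpGs and 52.4%. No searched motif was in all 3 windows. A match is a description of letters and not of a site in use.

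Among the heavy chains, Itih5 was the most abundant in endfeet TRAP and changed with the smallest spread. Itih5 (ENSMUSG00000025780) lies at chr2:10153571-10256529 on the plus strand of mm10 and is represented by a transcript of 14 exons (ENSMUST00000026886). It encodes a heavy chain relative that is made in many tissues outside the liver. Its normalized counts were 521, 391 and 427 in whole astrocyte libraries 1, 2 and 3. The endfeet values lay between 13130 and 19958 (median 17468). The lowest endfeet library was library 3 and the highest library 2, and every endfeet value lay far above every whole astrocyte value. By edgeR, Itih5 was 37.4-fold higher (log2 fold change 5.23, SE 0.31, adjusted p = 1.78e-07). The coefficient of variation over the 6 endfeet libraries was 16.7%, at percentile 1.46 among 12163 genes with a mean normalized count of at least 50, whose median was 57.9%. Divided by transcript length, the level of Itih5 came to 4.62 ± 0.638 CPM per kb (SD, n = 3) for whole astrocytes and to 164 ± 33.9 CPM per kb (SD, n = 6) for endfeet. By this level it stood at rank 8219 of 22092 genes in the first group and at rank 165 in the second.

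Itih2 is the neighbour of Itih5 on chromosome 2. Itih2 (ENSMUSG00000037254) lies at chr2:10094593-10130663 on the minus strand, and its transcript (ENSMUST00000042290, 21 exons) is transcribed away from that of Itih5, with 22908 bases between the starts. It encodes heavy chain 2, which in plasma is part of the inter-alpha-trypsin inhibitor itself. Its normalized counts were 18.9, 41.2 and 21.9 in the whole astrocyte libraries and 645 to 1838 (median 1121) in the endfeet libraries. Endfeet library 1 was the highest and endfeet library 3 the lowest, and the groups did not overlap. By edgeR the difference was 41.0-fold (log2 fold change 5.36, SE 0.53, adjusted p = 8.34e-06). The coefficient of variation over endfeet libraries was 35.3%, at percentile 18.2. The level per length rose from 0.724 ± 0.322 CPM per kb (SD, n = 3) to 27.3 ± 6.91 CPM per kb (SD, n = 6). The ratio of Itih5 to Itih2 in CPM per kb was 3.72 to 10.8 across whole astrocyte libraries and 3.03 to 7.99 across endfeet libraries, so that these ranges overlapped.

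Itih3 did not follow its relatives. It encodes heavy chain 3, joined in plasma to bikunin as pre-alpha-inhibitor. Itih3 (ENSMUSG00000006522) lies at chr14:30908572-30923760 on the minus strand (ENSMUST00000006697, 22 exons), between Itih4 and Itih1, from which it is separated by 6624 and 5420 bases. Its normalized counts were 519, 717 and 738 in the whole astrocyte libraries. In endfeet libraries 1 to 6 they were 348, 435, 425, 1349, 1379 and 266, with a median of 430. Endfeet libraries 4 and 5 were above all whole astrocyte libraries, and the other 4 were below all of them. The log2 fold change was 0.09 (SE 0.56, adjusted p = 0.914 by edgeR). With endfeet libraries 1 to 3 alone it was -0.74 (adjusted p = 0.0944), and with endfeet libraries 4 to 6 alone 0.48 (adjusted p = 0.539). The sign thus depended on which endfeet libraries entered, and it also turned without endfeet library 4 (-0.36), without endfeet library 5 (-0.34) and without whole astrocyte library 1 (-0.023). The coefficient of variation over endfeet libraries was 73.9%, at percentile 68.0. Endfeet libraries 4 and 5 also had the highest astrocyte marker means, 9.79 and 9.90, but endfeet library 1, at 9.49, had only 348 normalized counts of Itih3, and the part of the marker level in this result was not tested. In whole astrocyte TRAP Itih3 was the most abundant heavy chain, at 18.03 ± 3.52 CPM per kb (SD, n = 3), and in endfeet TRAP its level was 18.3 ± 13.9 CPM per kb (SD, n = 6).

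Divided by length and summed, the 5 heavy chain genes had a different composition in the 2 groups. Itih3 made up 76.4% ± 5.39 (SD, n = 3) of the sum for whole astrocytes and 8.07% ± 4.83 (SD, n = 6) for endfeet. Itih5 made up 20.2% ± 5.66 and 78.4% ± 5.63, and Itih2 3.05% ± 1.16 and 13.5% ± 5.03. No endfeet library overlapped any whole astrocyte library in these shares. The ratio of Itih5 to Itih3 in CPM per kb was 0.206 to 0.380 across whole astrocyte libraries, against 5.24 to 23.2 across endfeet libraries. These shares were chosen after the values were seen and are given as a description without a test. Without division by length, Itih5 had 39.6% of the counts for whole astrocytes and 90.3% for endfeet.

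**Figure D2:**
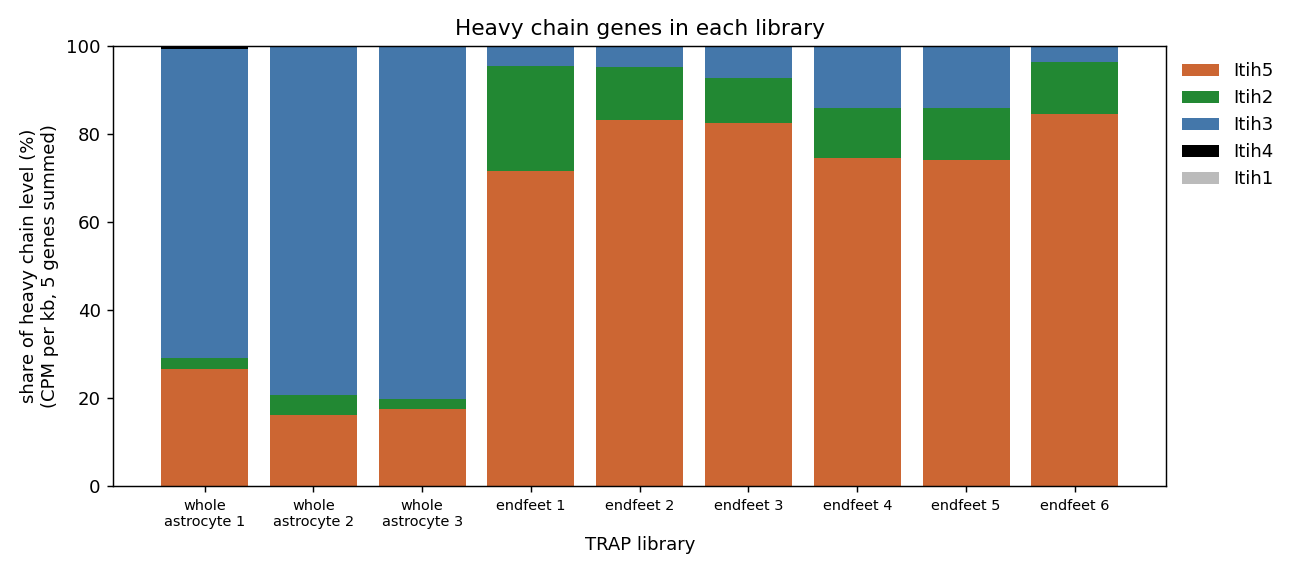
Each bar is 1 library and is divided into the percentages of the summed CPM per kb that came from each of the 5 heavy chain genes. Itih3 takes 70.2% to 79.9% of the whole astrocyte bars, and Itih5 takes 71.7% to 84.6% of the endfeet bars.

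Itih4, which encodes a heavy chain relative secreted by the liver, was near the floor. Itih4 (chr14:30886502-30901948, plus strand) had 15, 8 and 9 raw counts in the whole astrocyte libraries. It had 14 counts in endfeet library 3 and 0 in the other 5 endfeet libraries. Over the summed libraries its CPM in endfeet TRAP was 0.888 times that in whole astrocyte TRAP, with an exact 95% interval of 0.438 to 1.71 that covers counting error only. No difference was detectable at this depth, and the gene did not pass the filter on low counts.

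Itih1 (chr14:30929180-30943277, minus strand), which encodes heavy chain 1, and Ambp (chr4:63143275-63154173, minus strand), which encodes bikunin, had 0 counts in all 9 libraries. A count of 0 over the summed libraries allows up to 0.0527 CPM for endfeet and up to 0.0260 CPM for whole astrocytes. The mRNA of the light chain was therefore not detectable at this depth in either group, whereas that of Itih2 and Itih5 was. Other plasma proteins of the liver were also near 0. Of 12 such genes, 7 were at 0 in all libraries, Alb, Fga, Fgb and Ahsg among them, and the mean of their log2(CPM + 1) was at most 0.164 in a whole astrocyte library and at most 0.385 in an endfeet library.

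The hyaluronan synthases Has1 and Has2, membrane enzymes that extend the polymer, had at most 16 raw counts in any library. Has1 (chr17:17843323-17855188, minus strand) had 3, 0 and 7 raw counts in whole astrocyte libraries. In endfeet TRAP it had 1 count in library 2, 4 in library 5 and 0 in the others. The ratio of CPM over the summed libraries was 1.02, with an exact 95% interval of 0.272 to 3.26. Has2 (chr15:56665627-56694539, minus strand) had 8, 0 and 16 counts in whole astrocyte libraries and 0 in all endfeet libraries. Taken against a limit of 3 counts over the endfeet group, its CPM was 3.94-fold lower in endfeet TRAP. That value allows for counting error in the endfeet group only and takes the 24 whole astrocyte counts as exact. Of the 3 whole astrocyte libraries, 1 was at 0 as well. The gene did not pass the filter, and without the filter its adjusted p by edgeR was 0.0835. An annotated antisense gene, Has2os, overlaps the locus, but the exons of the measured Has2 transcript share no bases with exons of other genes in the data. The strand setting of the counting is not given in the sources used here. The third synthase, Has3, is outside the 10 genes and was the most counted synthase, with 133, 116 and 98.5 normalized counts in whole astrocyte libraries against 9.81 to 451 (median 103) in endfeet libraries. The endfeet values of Has3 lay on both sides of the whole astrocyte values (log2 fold change 0.34, SE 0.96, adjusted p = 0.811 by edgeR), and the sign turned under several settings, also without endfeet library 6 (-0.30).

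Both hyaluronidases were higher in endfeet TRAP. Hyal1 and Hyal2 lie on chromosome 9 in the same orientation, with 4182 bases between the end of Hyal2 and the start of Hyal1. Hyal2 is a hyaluronidase anchored at the cell surface that cuts the polymer into large fragments, and Hyal1 is a lysosomal enzyme that cuts fragments further.

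Hyal1 (ENSMUSG00000010051, chr9:107576958-107580978, plus strand, ENSMUST00000010195, 4 exons) had 82.7, 72.6 and 104 normalized counts in the whole astrocyte libraries. Endfeet libraries ranged from 414 in library 3 to 910 in library 1, with a median of 817. Apart from library 3, the endfeet libraries lay close together, between 798 and 910, and the groups did not overlap. The log2 fold change was 3.13 (SE 0.44, adjusted p = 0.000141 by edgeR), or 8.73-fold. The coefficient of variation over endfeet libraries was 23.1%, at percentile 4.94. The level per length was 2.35 ± 0.456 CPM per kb (SD, n = 3) in whole astrocyte and 19.1 ± 3.52 CPM per kb (SD, n = 6) in endfeet TRAP. Of the bases of this transcript, 63.7% also lie in exons of Naa80, an actin N-acetyltransferase gene on the same strand, so that reads there cannot be assigned to either gene alone. Naa80 was itself higher in endfeet TRAP (log2 fold change 2.11, SE 0.36, adjusted p = 0.000579 by edgeR), from 180 to 219 normalized counts against 664 to 957. The Hyal1 transcript that shares the fewest of its bases, 23.9%, had 100, 67 and 136 raw counts in whole astrocyte libraries and 66, 125, 105, 137, 241 and 10 in endfeet libraries 1 to 6. With this transcript, an alternative chosen after seeing the data, the log2 fold change was 2.17 (SE 0.76, adjusted p = 0.0417 by edgeR), lower than with the transcript used elsewhere. The spread, level, ratios and closest genes given for Hyal1 all come from the transcript used elsewhere, so reads of Naa80 can enter them. Naa80 had a coefficient of variation of 12.7% over the endfeet libraries.

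Hyal2 (ENSMUSG00000010047, chr9:107569117-107572776, plus strand, ENSMUST00000010191, 4 exons) shares no exon bases with other genes. Its normalized counts were 18.9, 32.1 and 33.0 in whole astrocyte libraries and 184 to 847 (median 254) in the endfeet libraries. Endfeet library 6, the shallowest, stood highest by far, at 847 against 370 in the next, yet all endfeet libraries were above all whole astrocyte libraries. The log2 fold change was 3.60 (SE 0.73, adjusted p = 0.00202 by edgeR), or 12.1-fold, and without endfeet library 6 it was 3.17 (adjusted p = 0.00136). The coefficient of variation over endfeet libraries was 72.3%, at percentile 66.4, so that Hyal2 varied about as Itih3 did. It varied far more than the Hyal1 transcript used, whose spread cannot be assigned to Hyal1 alone. Per length, Hyal2 stood at 1.21 ± 0.354 CPM per kb (SD, n = 3) and 14.0 ± 9.36 CPM per kb (SD, n = 6). The ratio of Hyal1 to Hyal2 in CPM per kb was 1.42 to 2.74 in whole astrocyte and 0.601 to 3.11 in endfeet libraries, and these ranges overlapped. Endfeet libraries 3 and 6 were the endfeet libraries in which Hyal2 exceeded Hyal1.

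**Figure D3:**
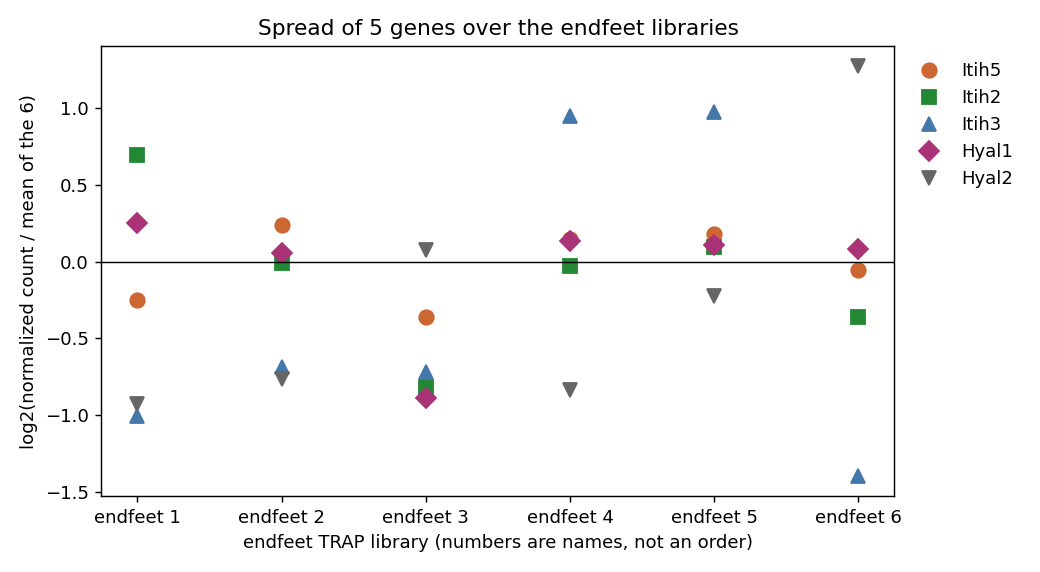
Each point is the log2 ratio of the normalized count in 1 endfeet library to the mean of the 6 endfeet libraries, for the 5 genes that were tested. Itih5 stays close to 0 in all 6 libraries, Itih3 is high in libraries 4 and 5, Hyal2 is high in library 6, and Itih2, Itih3, Itih5 and Hyal1 are all below 0 in library 3.

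Ordered by level per length in endfeet TRAP, the genes ran from Itih5 over Itih2, Hyal1, Itih3 and Hyal2 to Itih4, Has1 and the genes at 0. Of neighbours in this order, Itih5 and Itih2 were separated by more than their spread, while the ranges given by the SDs of Itih2, Hyal1, Itih3 and Hyal2 overlapped from each to the next. In whole astrocyte TRAP the order began with Itih3, Itih5, Hyal1, Hyal2 and Itih2. Between Itih3 and Itih5, Itih5 and Hyal1, and Hyal1 and Hyal2 the SDs did not overlap, and between Hyal2 and Itih2 they did.

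The genes whose values over the 9 libraries lay closest to each of the 5, after each gene was centred on its own mean, were found by the root mean square difference of log2(normalized count + 1) among 12297 genes. For Itih5 they were Sptbn1, a spectrin, at 0.229, Abhd2, a hydrolase, at 0.243 and Utrn, the dystrophin relative utrophin, at 0.260. Itih2 lay closest to Tfpi, an inhibitor of the tissue factor pathway, at 0.302, to Uaca at 0.330 and to the small matrix proteoglycan Lum at 0.340. Itih5 and Itih2 were 0.523 apart, so that Itih2 came at position 78 from Itih5 and Itih5 at position 26 from Itih2. Hyal1 lay closest to Ccdc3 at 0.184, Atp2b4 at 0.222 and the lysosomal chloride transporter Clcn7 at 0.223. For Hyal2 the closest were the lipoprotein receptor Scarb1 at 0.297, Crip1 at 0.359 and the lysosomal protease Ctss at 0.362. Itih3 lay closest to Sertad2 at 0.320, Tbc1d25 at 0.343 and Mboat2 at 0.386. Lum belongs to the fibroblast markers scored here, of which 8 of 9 were higher in endfeet TRAP. The difference between the groups enters this distance, so that genes with like fold changes lie close. The closest genes had log2 fold changes of 5.15 to 5.20 for Itih5 and of 5.26 to 5.50 for Itih2.

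Between the groups, markers of several other cell types moved in the same direction as the 4 genes that were higher. The median log2 fold change was 9.79 for the 9 endothelial markers, 7.44 for the 9 mural markers, 5.07 for the 9 fibroblast markers and 3.44 for 8 microglia and macrophage markers, of which 5 were higher and none lower. It was 4.90 for 7 choroid plexus markers, 6 of them higher, and 1.99 for 5 ependymal markers, 3 of them higher. The choroid plexus had been removed from the brains of whole astrocyte TRAP, and the part of this removal in the choroid plexus difference was not tested. The fibroblast marker mean of log2(CPM + 1) ranged from 2.12 to 2.57 in whole astrocyte and from 5.03 to 6.82 in endfeet libraries, the choroid plexus mean from 2.75 to 4.87 and from 6.23 to 8.92, and the microglia and macrophage mean from 1.40 to 1.58 and from 3.28 to 4.58. No defining marker of these lists was at 0 in all endfeet libraries. Itih5 and Itih2, at 5.23 and 5.36, thus had log2 fold changes below the endothelial and mural medians. They were close to the fibroblast and choroid plexus medians, and Hyal1 and Hyal2, at 3.13 and 3.60, to the microglia and macrophage median. These lists were wide, however. Log2 fold changes ran from 4.62 to 9.56 for mural, 2.61 to 5.99 for fibroblast and 0.998 to 7.18 for microglia and macrophage markers. Itih5 and Itih2 thus also lay inside the mural range, and all 4 genes inside the other 2 ranges. The fibroblast median was the value of Dpep1, the fibroblast marker that missed the threshold (adjusted p = 0.0936 by edgeR). Dpep1 had counts in only 3 of the 6 endfeet libraries. Endfeet library 1, highest for Itih2, also had the highest choroid plexus mean, 8.92, and endfeet library 5, lowest for these markers at 6.23, still had 1213 normalized counts of Itih2. Endfeet library 3 had the highest endothelial, mural, fibroblast and microglia and macrophage means of all libraries, at 8.55, 8.75, 6.82 and 4.58. Among the endfeet libraries it had the lowest normalized counts of Itih2, Itih5 and Hyal1, at 645, 13130 and 414. Hyal2, at 370, was exceeded there only by endfeet library 6. Neuron markers were lower in 3 of 7 cases and oligodendrocyte markers in 1 of 6, with none higher. The part of these cell types in the members' results was not tested.

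Other genes of hyaluronan metabolism were compared in the same fit. Of 32 such genes, 31 were in the tables and 26 were tested. In endfeet TRAP 12 of them rose, 3 fell and 11 missed the threshold. Their median log2 fold change was 1.27. Over all 14427 genes tested, 20.7% were higher and 13.9% lower, with a median of 0.10. The counts by class below rest on few genes and are a description, to be read beside these shares.

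Among the enzymes that make the sugar nucleotides for the polymer, 6 were tested, of which 1 was higher and 1 lower. Ugp2, which makes UDP-glucose, fell by 2.91 on the log2 scale (SE 0.42, adjusted p = 0.000159 by edgeR). It had 8241, 8114 and 7188 normalized counts in whole astrocyte libraries and 236 to 1674 in endfeet libraries. Gfpt1, the entry enzyme of the hexosamine pathway, was 2.65-fold higher (log2 fold change 1.41, adjusted p = 0.0177), a call lost without any 1 of the whole astrocyte libraries (adjusted p from 0.0693 to 0.0700). Ugdh, which converts UDP-glucose to UDP-glucuronate, had a log2 fold change of -1.72 and missed the threshold (adjusted p = 0.0510), although all endfeet libraries, from 17.2 to 355, were below all whole astrocyte libraries, from 565 to 680. Without endfeet library 1 or 5 it passed (adjusted p = 0.0113 and 0.0285).

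Of 5 further genes of hyaluronan degradation that were tested, 4 were higher and none lower. Cemip, a secreted or membrane-associated protein required for depolymerization of hyaluronan, had 12.4, 15.9 and 22.5 normalized counts in whole astrocyte libraries and 173 to 1754 in the endfeet group (edgeR log2 fold change 5.68, SE 0.75, adjusted p = 8.35e-05). Cemip2, a cell surface hyaluronidase, had 28.2 to 31.7 against 216 to 6370 (log2 fold change 5.62, SE 1.15, adjusted p = 0.0021). The highest value of Cemip2 was that of endfeet library 1, and without this library the log2 fold change was 4.22 (adjusted p = 0.000141). Lysosomal glycosidases that take apart the fragments were also higher, with log2 fold changes of 2.94 for Gusb and 2.44 for Hexa.

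Of the 2 genes that move heavy chains onto hyaluronan or hold the product together, only Tnfaip6 was tested, and it missed the threshold. Tnfaip6 encodes TSG-6, the enzyme of the transfer, and had 77.9, 48.6 and 60.2 normalized counts in whole astrocyte libraries and 0 to 95.6 in endfeet libraries, with a median of 29.0 (log2 fold change -0.71, SE 1.10, adjusted p = 0.652 by edgeR). Ptx3, which links modified hyaluronan, had 86 raw counts over the whole astrocyte libraries and 0 over the endfeet libraries and did not pass the filter.

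All 6 hyaluronan receptors passed the test, 5 higher and 1 lower. Layn, which encodes layilin, rose the most, from 4.73 to 6.94 normalized counts in whole astrocyte libraries to between 284 and 1219 in the endfeet group (edgeR log2 fold change 6.92, SE 0.70, adjusted p = 9.59e-06). Cd44, the most studied receptor, rose by 3.93 on the log2 scale (SE 0.74, adjusted p = 0.00118), with endfeet values from 396 to 2767. Hmmr rose by 5.55 (SE 1.42, adjusted p = 0.00872), Stab1 by 4.45 (SE 0.60, adjusted p = 0.000101), and Lyve1, a marker of lymphatic endothelium and of vessel-associated macrophages, by 3.78 (SE 1.01, adjusted p = 0.0113). The call of Lyve1 was lost without whole astrocyte library 2 or 3 (adjusted p = 0.0655 and 0.0577), and without endfeet library 2, the highest at 714, its log2 fold change was 3.07 (adjusted p = 0.0243). Stab2, a scavenger receptor, had 77.5 to 97.7 normalized counts in whole astrocyte libraries and 0 to 4.02 in endfeet libraries, where it was lower (log2 fold change -5.99, SE 1.22, adjusted p = 0.00212). Without endfeet library 4, which had the highest endfeet value of Stab2, the log2 fold change was -7.14 (adjusted p = 0.00152).

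Of 7 hyaluronan-binding proteoglycans and link proteins tested, 2 were higher and 1 lower. Ncan, the lectican neurocan, rose from 2382 to 3038 normalized counts in whole astrocyte libraries to between 9054 and 29205 in the endfeet group (edgeR log2 fold change 2.53, SE 0.38, adjusted p = 0.000239). Bcan, the lectican brevican, rose by 1.13 (SE 0.35, adjusted p = 0.0229), which was lost without any 1 whole astrocyte library or endfeet library 4 or 5 (adjusted p from 0.0538 to 0.115). Hapln2, a link protein of myelinated axons, fell by 4.10 on the log2 scale (SE 1.17, adjusted p = 0.0160), from 12.8 to 32.4 normalized counts in whole astrocyte libraries against 0 to 3.32 in endfeet libraries, and its call was lost without whole astrocyte library 1 or 3 (adjusted p = 0.0862 and 0.0700). Without endfeet library 3 its log2 fold change was -4.75 (adjusted p = 0.0130). Stab1, Gusb, Hexa, Ncan, Bcan, Gfpt1 and Ugdh were named after their values were seen.

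**Figure D4:**
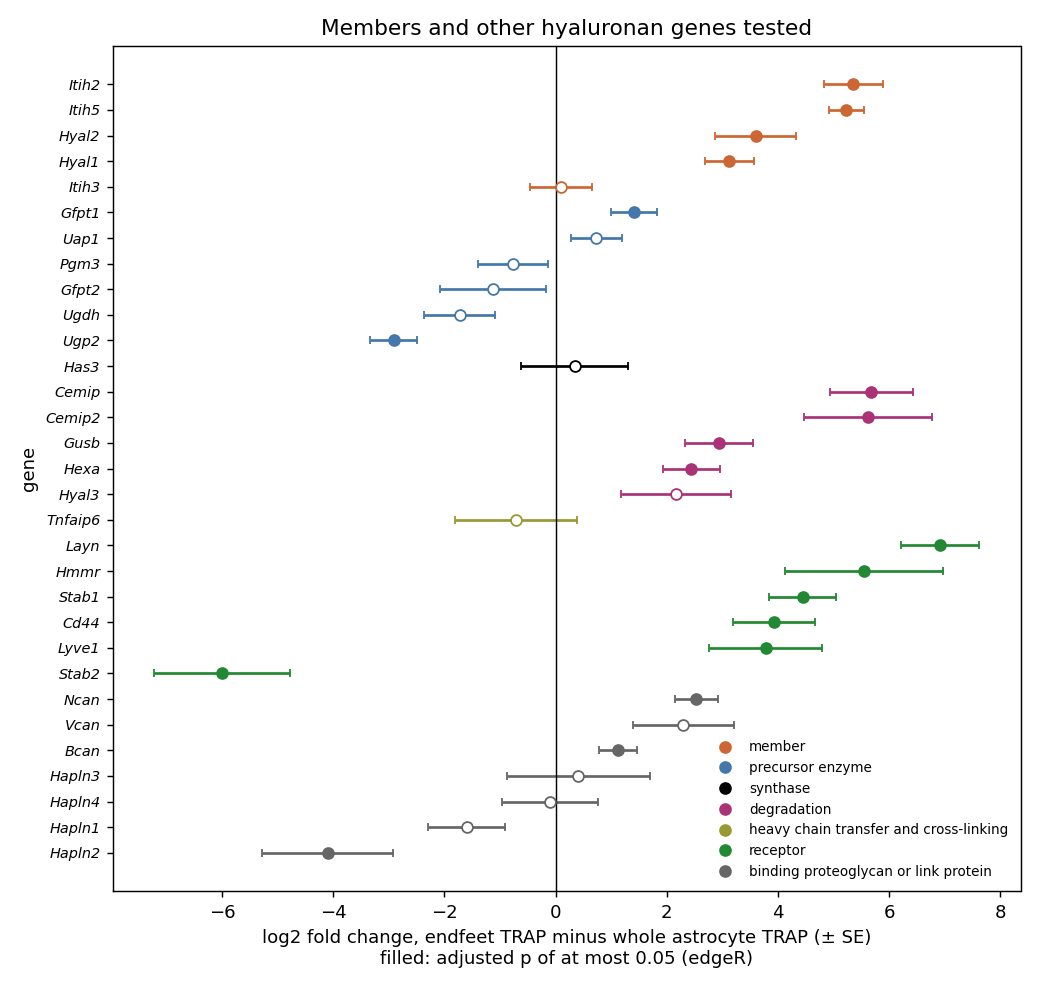
Each point is the log2 fold change of endfeet TRAP minus whole astrocyte TRAP for 1 gene, with the SE as bars, and filled points have an adjusted p of at most 0.05. The 4 members that were higher lie between 3.13 and 5.36, Itih3 lies at 0.09, and of the other genes the degradation enzymes and all receptors but Stab2 lie to the right of 0.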

How the data were processed

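Ribosome-bound RNA was measured in 6 endfeet TRAP and 3 whole astrocyte TRAP libraries, grouped by the labels. Per the study's methods the authors amplified the RNA, used Bowtie to align the reads to mm10, discarded those with more than 1 alignment and counted overlaps with annotated genes by HTSeq (HTSeq 0.5.3 in the submitters' processing notes, with bcl2fastq 1.8.4). The deposited tables list a raw count for each of 75466 Ensembl transcripts, without normalization or filter. A read counts on every transcript it overlaps, and reads with more than 1 alignment are lost, which can lower genes with near-identical copies.

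Transcripts were matched to GENCODE M21, which found 73164 of them and 22092 genes, and 2302 were left out. For each gene the transcript whose CPM, summed over libraries, was highest stood for the gene. The groups were compared with edgeR 4.0.16 (TMM, filterByExpr, glmQLFit, glmQLFTest; R 4.3.3), and p-values were adjusted by Benjamini-Hochberg over all genes tested, with a threshold of 0.05. The SE was obtained from the F value, as the size of the log2 fold change over the root of F. Normalized counts are counts divided by the size factors of DESeq2 1.42.0. The script was tested on simulated data in which all libraries had the same dispersion. That test thus does not cover groups of unequal spread, as found here. Intervals and floors hold for counting error only, because reads copied by amplification are not independent molecules.

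Named genes were the 10 members, the genes of the hyaluronan list Has3, Cemip, Cemip2, Tnfaip6, Ptx3, Cd44 and Lyve1, the 4 with the largest change among those called in each direction, and the 3 closest genes of each tested member. Exceptions are stated where they occur. The counts of the hyaluronan list leave out a gene not reported here. The members and all lists were chosen with earlier results of these data known.

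Endfeet libraries 1 to 3 carry library numbers of another series than the other 6 libraries. Their meaning is not given in the sources used here. The alternatives were DESeq2's Wald test (with its fold change prior or none), group-weighted limma voom (limma 3.58.1), DESeq2 size factors or library totals in edgeR, a minimum of 1 count in total or of 10 counts per library, a covariate for the library series, endfeet libraries 1 to 3 or 4 to 6 only, the replicate number as a block, transcripts summed, libraries thinned to the smallest, a minimum log2 fold change of 1 in either direction, and each library left out in turn. With the replicate block, endfeet libraries 4 to 6 stand alone in their blocks and add nothing to the group difference. With the series covariate, the same holds for endfeet libraries 1 to 3. The least shared Hyal1 transcript and heavy chain shares by counts were chosen after seeing the data. Tables were read with Python 3.11.15.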

Additional observations from a re-analysis of the deposited data

Results flagged for a closer look

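In 7 sets of the 6 endfeet values, those of the 7 members with any endfeet count, 3 held a library whose gap to the next was above Dixon's 95% critical value for 6 samples. Chance flags about 1 in 20 sets of normally distributed values, and normalized counts need not be so distributed. That rate does not apply to Itih4, where a single library with counts gives a gap of the whole range. Itih4 had 11.6 normalized counts in endfeet library 3 and 0 in the other 5 endfeet libraries, from 14 raw counts. Hyal1, by the transcript shared in part with Naa80, was lowest in endfeet library 3, at 414, with a gap of 0.774 of the whole range. The other Hyal1 transcripts were not screened in this way. Hyal2 was highest in endfeet library 6, at 847, with a gap of 0.720 of the range. The cause was not tested.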

How the results depend on the processing

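In all alternatives run, Itih2, Itih5, Hyal1 and Hyal2 were called higher (4 genes) and no member was called lower (0 genes). Over the alternatives other than the added Hyal1 transcript, the log2 fold change ranged from 5.06 to 5.43 for Itih5, from 5.14 to 5.76 for Itih2, from 2.96 to 3.27 for Hyal1 and from 3.14 to 4.22 for Hyal2, with largest adjusted p-values of 7.78e-05, 0.000485, 0.00373 and 0.0182. The least shared Hyal1 transcript was fitted with the main settings only. The range given for Hyal1 thus holds for counts shared in part with Naa80. Itih3 reversed with at least 10 counts in every library (-0.020), with endfeet libraries 1 to 3 only (-0.74) and with the replicate block (-0.71), and it ranged from -0.36 to 0.27 when each library was left out in turn. It passed the threshold in no alternative. By counts without division by length, the share of Itih3 in whole astrocyte TRAP was 57.7% and that of Itih5 was 39.6% in whole astrocyte and 90.3% in endfeet TRAP.

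Of the other hyaluronan genes 3 were lower, but 6 with limma voom, 6 with endfeet libraries 4 to 6 only and 1 with at least 10 counts in every library, and 2 to 5 when each library was left out in turn. The number was 5 without endfeet library 1. Has3 reversed with limma voom (-0.48), with endfeet libraries 1 to 3 only (-0.66) and with the replicate block (-1.25), and ranged from -0.30 to 0.59 with each library left out. Bcan, Hapln2, Gfpt1 and Lyve1 lost their call in 7, 5, 3 and 2 alternatives, and Ugdh gained one in 8. Of all calls, 59.9% were higher, against 46.7% with limma voom and 49.8% with endfeet libraries 4 to 6 only. The cause was not tested.

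The replicate numbers did not pair the libraries: the deviations of same-numbered libraries correlated at -0.0353, 0.0175 and 0.0367. With the replicate block 4 members were higher and 0 lower, and Itih3 stood at -0.71. The depth of endfeet library 6, at 2319495 counts, and counts at or near 0 limit what can be said of Itih1, Itih4, Ambp, Has1 and Has2.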
